A study of Mus musculus with 2 samples.

Results

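The mitochondrial genome of the mouse holds 37 genes, and all 37 were found among the 55573 genes listed for these libraries, as the genes whose identifiers pair with a symbol that starts with mt-. They are 13 mRNAs, 2 rRNAs and 22 tRNAs. Of these, 12 mRNAs, both rRNAs and 1 tRNA had 10 or more reads in the 2 libraries together, and the other 22 genes had 0 reads in both. One library came from mesenteric arteries of wild type C57BL/6 mice aged 10 weeks kept in 5 mM K+ (control), and the other from arteries of such mice depolarized with 60 mM K+. Both were labelled as treated for 60 min, each library pooled tissue of 2 mice, and the methods state that all solutions held tetrodotoxin, which blocks nerve activity. The comparison asks which transcripts differ after a sustained depolarization of the arterial wall. The methods describe control tissue as taken from the distal side of the vessel before the rest was perfused with high K+, so segment and time in solution cannot be told apart from K+ if this holds for the sequenced arteries.

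Mitochondrial DNA is transcribed from both strands as long precursors. Excision of the tRNAs, which lie between most of the other genes, releases the mRNAs and rRNAs, and a poly(A) polymerase then extends most of the mRNAs and, with shorter tails, the rRNAs. The 13 mRNAs encode membrane subunits of the respiratory chain and of ATP synthase, and the 2 rRNAs form the mitochondrial ribosome that translates them. In resistance arteries the respiratory chain supplies part of the ATP used for contraction and ion transport. The libraries were made from RNA bound to poly-T beads, with fragments selected for length.

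Each condition had 1 library, so no p-value that covers variation between animals could be computed and every difference lacks a check by replicates. The paper used q-values from DEGSeq and lists both mitochondrial rRNAs among its up-regulated genes. Gene counts summed to 10480918 reads for 5 mM K+ and to 11289598 reads for 60 mM K+. Smooth muscle genes were abundant in both, and the 6 markers of that cell type took 3.62% of control and 3.42% of depolarized reads. Changes are given as log2(fold-change), 60 mM K+ over 5 mM K+, with library sizes adjusted by the trimmed mean of M-values (TMM) in edgeR. Their 95% exact (Clopper-Pearson) intervals come from the share of a gene's reads in each library and cover counting error only. In bulk tissue, fewer cells of a type and less RNA per cell cannot be told apart.

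Before the levels, the sequence of these genes has to be considered, because part of the mitochondrial genome is present a second time in the nuclear genome. In the reference genome mm9 (NCBIM37), positions 6390 to 11042 of the mitochondrial chromosome aligned to chromosome 1, 24618374 to 24623027, on the opposite strand with 99.9% identity. Of 77 nuclear alignments this was the longest. The next longest, on chromosome 2 with 97.4% identity, covered positions 4441 to 7699, which include mt-Co1. The chromosome 1 copy differs at 2 bases and by 1 inserted base. It is described in mm9, the build that the methods name, and many of the gene identifiers are absent from the mm9 annotation used here, so the counts may have been made on a later build. It contains 6 of the 13 mRNA genes in full (mt-Co2, mt-Atp8, mt-Atp6, mt-Co3, mt-Nd3 and mt-Nd4l), 31.3% of mt-Co1 and 63.6% of mt-Nd4. Near the annotated start of mt-Nd3 the substitution is T9461C (mitochondrial base, mitochondrial position, nuclear base on the same strand). Both versions are shown over 41 bases with the differing base in capitals, since it is the only base inside mt-Nd3 that separates the gene from its copy. The first is chrM:9441-9481 on the plus strand and the second is chr1:24619936-24619976 on the minus strand.
Mitochondrial: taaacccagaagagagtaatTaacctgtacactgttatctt
Nuclear copy: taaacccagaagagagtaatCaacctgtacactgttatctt

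Neighbouring mitochondrial genes also share bases or touch each other, so that a read can lie on more than 1 gene. The end of mt-Nd4l and the start of mt-Nd4 share 7 bases, shown in capitals at chrM:10137-10203, and mt-Atp8 and mt-Atp6 share 43 bases, in capitals at chrM:7912-7984. The tRNA gene mt-Tg fills the gap between mt-Co3 and mt-Nd3 and is shown in capitals at chrM:9371-9478, as an example of a tRNA with genes on both sides. In contrast mt-Tp, in capitals at chrM:15336-15442 on the minus strand, is the last annotated gene and is followed on the chromosome by 877 bases without a gene.
mt-Nd4l and mt-Nd4: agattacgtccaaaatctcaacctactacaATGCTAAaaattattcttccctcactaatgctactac
mt-Atp8 and mt-Atp6: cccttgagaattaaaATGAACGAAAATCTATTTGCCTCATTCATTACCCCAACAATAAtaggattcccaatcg
mt-Tg: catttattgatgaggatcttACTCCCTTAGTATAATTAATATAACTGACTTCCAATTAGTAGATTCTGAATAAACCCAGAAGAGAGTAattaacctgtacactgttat
mt-Tp: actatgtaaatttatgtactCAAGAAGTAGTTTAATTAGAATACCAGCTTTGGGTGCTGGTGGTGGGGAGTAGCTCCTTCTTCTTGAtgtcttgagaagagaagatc

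The annotated ends of mt-Co3, mt-Nd4 and mt-Cytb are a single T that is not a whole codon, and the poly(A) tail by which the library protocol selects mRNA also completes the stop codon of such transcripts. These ends are shown with that T in capitals and the first bases downstream in lower case, at chrM:9367-9396, chrM:11521-11550 and chrM:15265-15294 on the plus strand. They are 3 of the 13 mRNA genes.
mt-Co3: tctccatttattgatgaggatctTactccc
mt-Nd4: aactaattacaggcctgacaataTgtgaat
mt-Cytb: acaaaatactaaaattatatccaTgtcttg

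The mRNAs made up nearly all mitochondrial reads, 98.1% in the control and 96.6% in the depolarized library. Their summed reads were 276876 in 5 mM K+, or 2.64% of the library, and 344835 in 60 mM K+, or 3.05%. After TMM scaling the sum was 1.34-fold higher in the depolarized library (interval 1.33 to 1.34), a log2(fold-change) of 0.42. If total counts are used for scaling instead, every log2(fold-change) is lower by 0.21, and the sum was 1.16-fold higher. Of the 4096 genes with at least 1000 reads, 19.4% had a larger log2(fold-change) than the mRNA sum.

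Levels per gene length, in the authors' FPKM, fell into 2 groups of mRNAs that did not overlap. The 7 genes that are not wholly inside the chromosome 1 copy lay between 591.2 and 6552 FPKM in the control library. The 6 genes inside it lay between 0 and 52.6 FPKM. These 6 genes hold 26.3% of the bases of the 13 mRNAs and had 0.169% of their reads in the control and 0.192% in the depolarized library. Of all windows of 100 bases on these 6 genes that touch a single gene, 3 have no exact copy in the nuclear genome, and all 3 lie on mt-Nd3. The sources used here do not say how reads that match both places were treated, and the part of the copy in these levels was not tested. No order of transcript level is drawn between these 6 genes and the other 7.

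**Figure D1:**
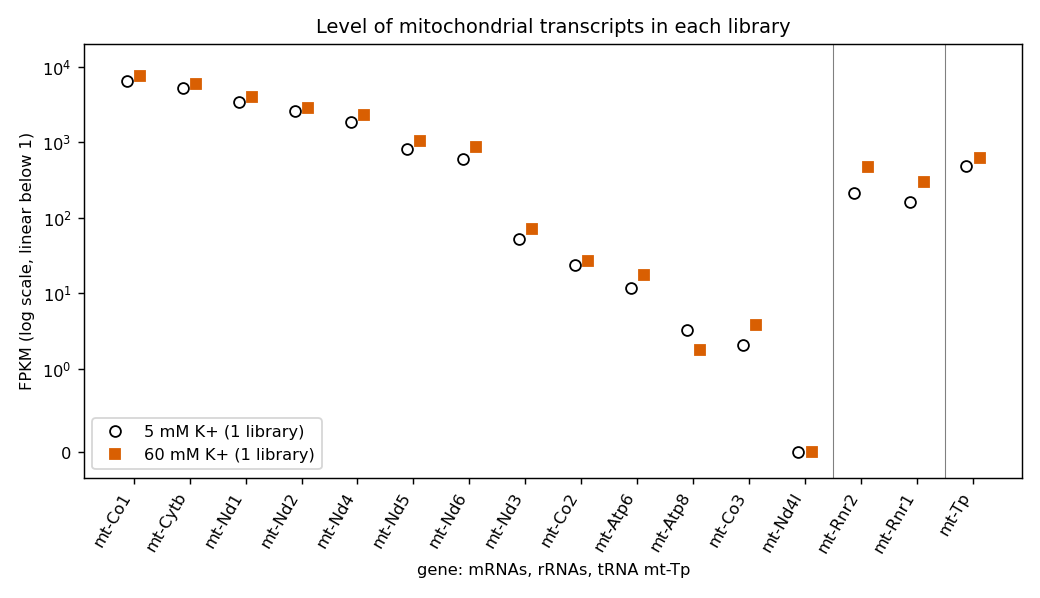
FPKM (log axis, linear below 1) of the 13 mRNAs, 2 rRNAs and the tRNA mt-Tp in the control library (open circles) and the depolarized library (orange squares), 1 library each. In 5 mM K+ the mRNAs separate into 7 genes at 591.2 FPKM or more and 6 genes at 52.6 FPKM or less, with mt-Nd4l at 0 in both libraries.

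**Figure D2:**
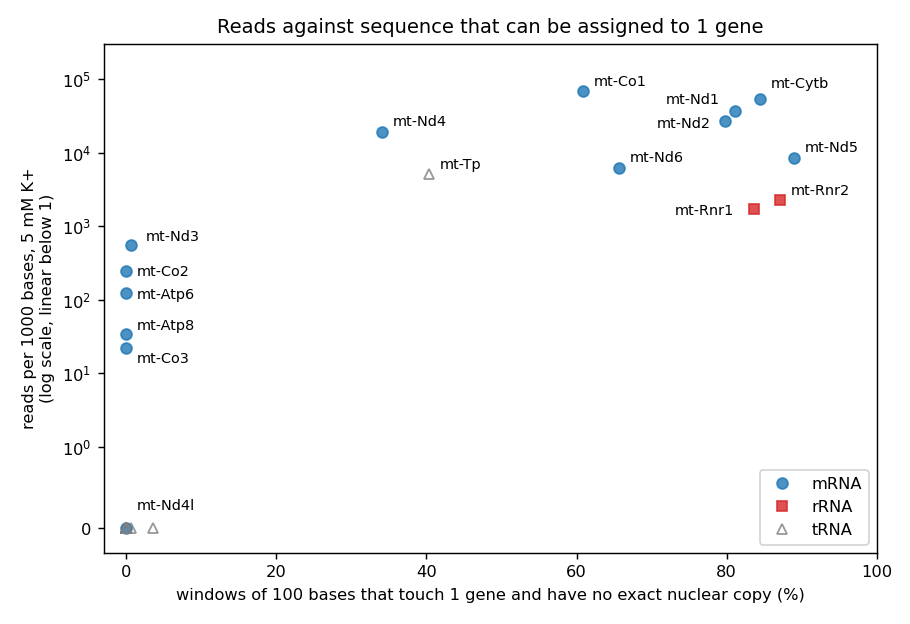
Reads per 1000 bases in the control library (log axis, linear below 1) against the share of 100-base windows overlapping a gene that touch no other gene and have no exact nuclear copy, for the 37 genes. The 6 mRNAs inside the chromosome 1 copy lie at the left edge below 1000 reads per 1000 bases, mt-Nd4 and mt-Co1 lie between, and of the tRNAs mt-Tp stands apart.

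Among the well counted mRNAs mt-Co1, the catalytic subunit of cytochrome c oxidase (complex IV), was the highest. It lies on chrM:5328-6872 and had 106103 reads in the control and 130417 reads in the depolarized library, the fourth most of any gene in each. Its log2(fold-change) was 0.40 (interval 0.39 to 0.41). In FPKM it was the third highest gene in both libraries, with 6552 and 7477.

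The apocytochrome b gene mt-Cytb (chrM:14145-15288), the mitochondrial subunit of complex III, followed with 62022 and 76726 reads. It had 5173 FPKM in the control and 5941 FPKM in the depolarized library, and a log2(fold-change) of 0.41 (interval 0.39 to 0.42). Its counting interval overlapped that of mt-Co1.

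The remaining well counted mRNAs encode subunits of complex I, the NADH dehydrogenase. For mt-Nd1 (chrM:2751-3707) there were 34663 control and 42631 depolarized reads, a log2(fold-change) of 0.40 (interval 0.38 to 0.42). For mt-Nd2 (chrM:3914-4951) there were 28193 and 32844 reads, and its log2(fold-change) of 0.32 (interval 0.30 to 0.34) was the lowest of the 7. These 2 subunits were thus close to mt-Co1 and mt-Cytb in their change, with mt-Nd2 below them.

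The proton-pumping subunit gene mt-Nd4 (chrM:10167-11544) had 26594 and 35248 reads, a log2(fold-change) of 0.51 (interval 0.48 to 0.53). The next mRNA downstream, mt-Nd5 (chrM:11742-13565), had 15616 and 21264 reads, with a log2(fold-change) of 0.55 (interval 0.52 to 0.58). Both lay above the intervals of mt-Nd1, mt-Nd2, mt-Co1 and mt-Cytb.

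The mRNA mt-Nd6 (chrM:13552-14070) is the only one encoded on the opposite strand, and it is known to carry little or no poly(A) tail. Control arteries gave 3216 reads and depolarized arteries 5044, or 591.2 and 860.9 FPKM. Its log2(fold-change) of 0.75 (interval 0.69 to 0.81) was the highest of the 7 mRNAs with at least 1000 reads. No source used here says that counting used strand, and mt-Nd6 shares 14 bases with mt-Nd5, so reads of its own transcript and of the opposite strand cannot be told apart.

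The order of the levels depended on whether reads were divided by gene length or by the sequence that can be assigned. Per length, mt-Nd4 had 0.356 of the FPKM of mt-Cytb in the control and 0.381 in the depolarized library. All reads of a gene were then divided by its number of 100-base windows that touch no other gene and have no exact nuclear copy. With 503 such windows for mt-Nd4 and 1050 for mt-Cytb, these ratios were 0.895 and 0.959. No reads were counted within windows. This divisor is apt only if reads matching other places were dropped and reads were near 100 bases long, which was not tested. For mt-Co1 the ratio to mt-Cytb moved from 1.27 to 1.79 in the control library. By FPKM the order was mt-Co1, mt-Cytb, mt-Nd1, mt-Nd2, mt-Nd4, mt-Nd5 and mt-Nd6 in both libraries, and by windows mt-Nd4 came after mt-Cytb.

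The 6 genes inside the nuclear copy had few reads. The complex IV subunit mt-Co2 had 170 reads in the control and 208 in the depolarized library, with a log2(fold-change) of 0.39 (interval 0.09 to 0.69). For mt-Co3, also a subunit of complex IV, the counts were 17 and 33, with a log2(fold-change) of 1.06 (interval 0.17 to 1.995). The complex I subunit mt-Nd3 had 192 and 281 reads, with a log2(fold-change) of 0.65 (interval 0.38 to 0.92).

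Of the ATP synthase subunits, mt-Atp6, which forms part of the proton channel, had 83 and 135 reads, a log2(fold-change) of 0.80 (interval 0.40 to 1.22). The short gene mt-Atp8 had 7 and 4 reads and was the only counted mitochondrial gene with fewer reads in the depolarized library, at -0.71 (interval -2.93 to 1.27). No direction could be read from it at this depth. The complex I subunit mt-Nd4l had 0 reads in both libraries, and Gm10222, the gene annotated in the nuclear copy at its position (chr1:24619243-24619539), had 0 reads in both as well.

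The 2 rRNAs had the highest log2(fold-change) of the mitochondrial genes, although the wide interval of mt-Co3 spans both. The small-subunit rRNA mt-Rnr1 (chrM:70-1024) had 1625 reads in the control and 3213 in the depolarized library, 162.3 and 298.0 FPKM. Its log2(fold-change) was 1.08 (interval 1.00 to 1.17), and the lower end, 0.998, lay just below 2-fold. The large-subunit rRNA mt-Rnr2 (chrM:1094-2675) had 3534 and 8416 reads, 213.1 and 471.2 FPKM, with a log2(fold-change) of 1.35 (interval 1.30 to 1.41).

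Together the rRNAs had 5159 reads in 5 mM K+ and 11629 in 60 mM K+, 0.0492% and 0.103% of the library, which was 2.42-fold higher (interval 2.34 to 2.50). With total-count scaling this was 2.09-fold, and mt-Rnr1 then had a log2(fold-change) of 0.88. Among genes with at least 1000 reads, 1.98% had a larger log2(fold-change) than the rRNA sum. Neither rRNA lies inside the chromosome 1 copy. Of the 1681 windows of 100 bases that overlap mt-Rnr2, 18 have an exact copy elsewhere in the nuclear genome, and for mt-Rnr1 0 do.

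The rRNAs also differed relative to the mRNAs and to each other, and these ratios do not depend on the scaling. There were 1.86 rRNA reads per 100 mRNA reads in the control and 3.37 in the depolarized library, a log2 change of 0.86 (95% Woolf interval 0.81 to 0.90, counting error only). Reads on mt-Rnr2 per read on mt-Rnr1 went from 2.17 to 2.62, a log2 change of 0.27 (Woolf interval 0.17 to 0.37). Per length, mt-Rnr2 had 0.0412 of the FPKM of mt-Cytb in the control and 0.0793 in the depolarized library. These libraries were selected for poly(A), and the part of that selection in the rRNA values was not tested. In a list of histone genes, whose RNAs are known mostly to lack a poly(A) tail, 15 of 57 had 10 or more reads. Of the 15, 2 were more than 2-fold higher and 1 more than 2-fold lower, against 5.54% and 5.86% of all genes. The median log2(fold-change) of the 15 was -0.09. That median was 0.24 with a minimum of 50 reads, on the other side of 0. Only Hist2h2be (-0.43), Hist3h2a (-0.30), Hist1h2bc (0.78) and Hist1h1c reached this minimum. Some histone genes are also known to make polyadenylated RNA in cells that do not divide. The most abundant of them, Hist1h1c, had 1528 and 2955 reads, a log2(fold-change) of 1.05 (interval 0.96 to 1.14).

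**Figure D3:**
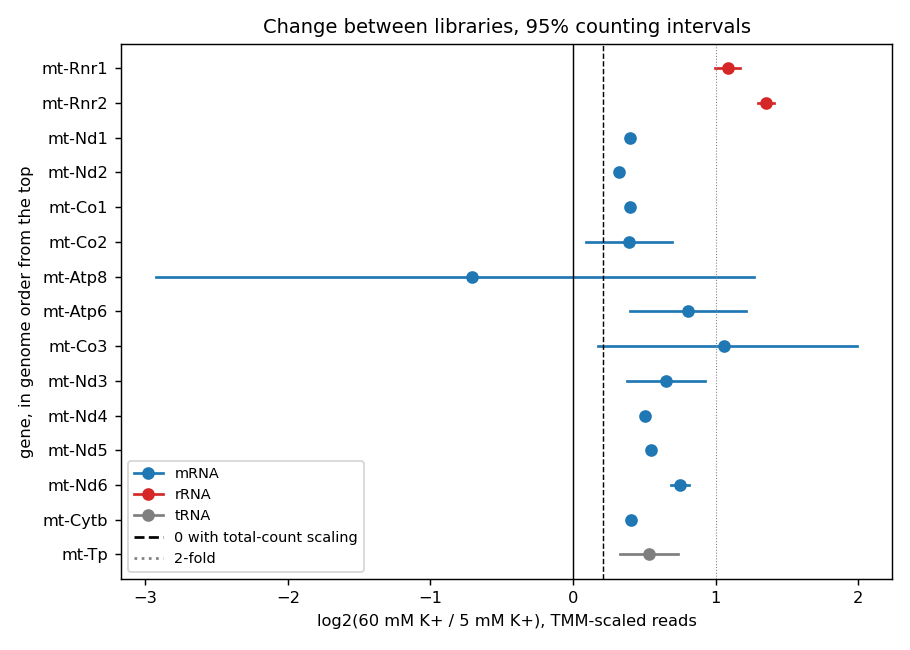
Log2(fold-change) of TMM-scaled reads, 60 mM K+ over 5 mM K+, for the 15 genes with at least 10 reads, with 95% counting intervals; the solid line is 0, the dashed line is 0 with total-count scaling and the dotted line is 2-fold. The rRNAs lie at 1.08 and 1.35, the 7 well counted mRNAs lie between 0.32 and 0.75, and mt-Atp8 and mt-Co3 have wide intervals.

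Of the 15 genes with 10 or more reads, 3 were more than 2-fold higher in the depolarized library, namely mt-Rnr1, mt-Rnr2 and mt-Co3, and 0 were more than 2-fold lower. With total-count scaling 1 was more than 2-fold higher, mt-Rnr2. Across all 14829 genes with 10 or more reads, 5.54% were more than 2-fold higher and 5.86% more than 2-fold lower. The counting interval lay wholly above 0 for 14 of the 15 genes and wholly below 0 for none of them, compared with 25.0% and 20.3% of all genes. With total-count scaling it lay above 0 for 12 of the 15. These shares cannot be set side by side directly, since well counted genes have narrow intervals, and of the 4096 genes with at least 1000 reads 50.7% had an interval wholly above 0.

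Within the mRNAs the composition was nearly the same in both libraries. The largest share, that of mt-Co1, was 38.3% of mRNA reads in the control library (exact interval 38.1% to 38.5%) and 37.8% in the depolarized library (37.7% to 38.0%). The share of mt-Cytb was 22.4% and 22.3%, with overlapping intervals. That of mt-Nd2 went from 10.2% to 9.52%.

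Shifts in favor of the depolarized library were small and lay in the genes from mt-Nd4 to mt-Nd6. The share of mt-Nd4 went from 9.61% to 10.2%, that of mt-Nd5 from 5.64% to 6.17% and that of mt-Nd6 from 1.16% to 1.46%. Relative to the other mRNAs this was a log2 change of 0.10, 0.14 and 0.34, with Woolf intervals of 0.08 to 0.12, 0.11 to 0.17 and 0.27 to 0.40. For mt-Nd2 it was -0.11 (-0.13 to -0.08), for mt-Co1 it was -0.03 (-0.05 to -0.02), and for mt-Nd1 and mt-Cytb the intervals included 0. The counted genes inside the chromosome 1 copy ran from -1.12 (mt-Atp8) to 0.64 (mt-Co3). Their few reads gave wide intervals that all included 0, so shifts there could not be read. These intervals hold counting error alone, and differences of this size between 2 libraries have no replicate check.

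**Figure D4:**
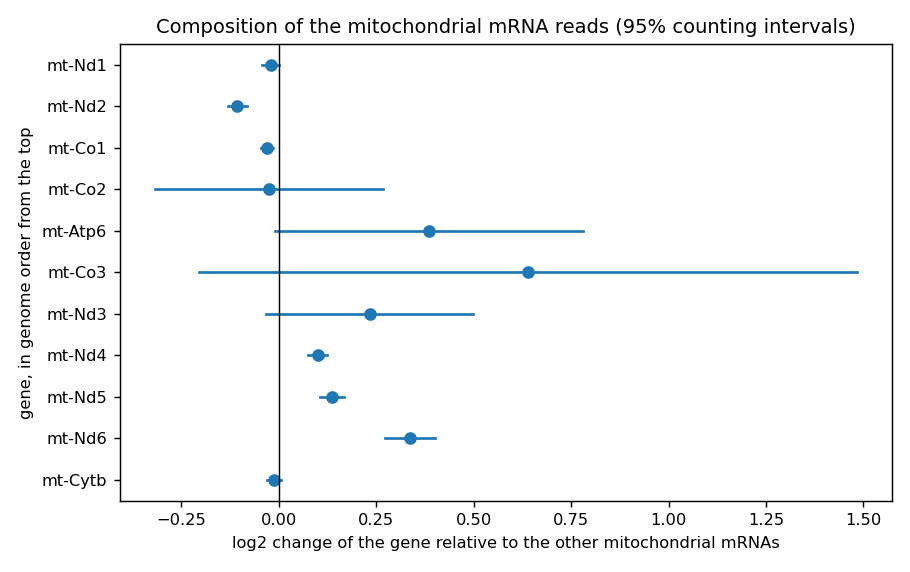
Log2 change of each mitochondrial mRNA relative to the other mitochondrial mRNAs (60 mM K+ over 5 mM K+) with 95% Woolf counting intervals, for 11 genes; mt-Atp8 (7 and 4 reads) and mt-Nd4l (0 reads) are not drawn. The value of mt-Nd6 is 0.34, that of mt-Nd2 is -0.11, and the genes inside the nuclear copy have intervals that include 0.

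The tRNA genes, each 59 to 75 bases long, were counted in a single case. The proline tRNA gene mt-Tp (chrM:15356-15422) had 343 control and 462 depolarized reads, with a log2(fold-change) of 0.53 (interval 0.33 to 0.74). The other 21 tRNA genes had 0 reads in both libraries, which allows a share of up to 2.86e-05% of the control and 2.66e-05% of the depolarized reads for each. Of the 22 tRNA genes, 14 lie on the same strand as most mRNAs and 8, mt-Tp included, on the other.

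These counts can be set beside the space around each tRNA gene. Of the 22 genes, 18 have another gene within 10 bases on both sides. Windows were taken along the reference chromosome from its first to its last base, so none ran on from its end into mt-Tf (chrM:1-68). A window of 150 bases that touches 1 gene and no other exists for mt-Tp alone, with 67 such windows, and for none of the other 21. With windows of 100 bases, 3 tRNA genes have such windows, 67 of them on mt-Tp and at most 6 on any other. With windows of 50 bases, all 22 tRNA genes have windows that touch no other gene, and 15 have such windows without an exact nuclear copy. The sources used here give neither the read length nor the rule for reads on more than 1 gene, and the part of either was not tested. Since counting is not stated to use strand, reads of mt-Tp and of RNA from the opposite strand cannot be told apart. Per read on mt-Cytb, the nearest mRNA, mt-Tp had 0.00553 reads in the control and 0.00602 in the depolarized library, a log2 change of 0.12 (Woolf interval -0.08 to 0.32).

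The mitochondrial mRNAs were set beside genes in the nucleus that serve the same organelle. A list of 87 genes was drawn by symbol, mostly by prefix, to cover nuclear subunits of the respiratory chain and ATP synthase. Of these, 81 had 10 or more reads, and 72 had a log2(fold-change) above 0, against 7362 of all 14829 genes with 10 or more reads. None of the 81 was more than 2-fold higher or lower, against 5.54% and 5.86% of all genes. The median log2(fold-change) of the 81 was 0.32, compared with 0.46 for the 12 mitochondrial mRNAs and -0.0047 over all 14829 genes. With total-count scaling the median of the nuclear subunits was 0.11 and that of all genes was -0.21. Among the higher values was that of the complex I subunit Ndufb6, with 169 and 249 reads and 0.66 (interval 0.37 to 0.95). Lowest among members with at least 50 reads were Cox6b2 at -0.54 and Ndufb2 at -0.52, whose intervals both included 0. The interval lay wholly above 0 for 61 of the 81 genes and wholly below 0 for 1. Over all genes these shares were 25.0% and 20.3%, and 50.7% of genes with at least 1000 reads had an interval wholly above 0. The 1 gene of the list below 0 was Atp5sl, which is in it by its prefix alone and need not be a subunit. It had 292 and 201 reads and a value of -0.44 (interval -0.70 to -0.17).

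Of 74 mitochondrial ribosomal protein genes with 10 or more reads, none was more than 2-fold higher or lower, against 5.54% and 5.86% of all genes. The median log2(fold-change) of the 74 was 0.15. With total-count scaling it was -0.06. The rRNAs they bind had 1.08 and 1.35. The highest of these genes was Mrpl11 at 0.70 (interval 0.41 to 0.98), and the lowest was Mrpl44 at -0.53 (interval -0.95 to -0.12).

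Of 31 genes for transcription, processing and decay of mitochondrial RNA, none was more than 2-fold higher and 1 was more than 2-fold lower, with a median of -0.01. The latter was Fastkd1, of a family of RNA-binding proteins of the organelle, which had 117 and 40 reads, a log2(fold-change) of -1.45 (interval -2.003 to -0.92). At the other end lay Mtpap, the mitochondrial poly(A) polymerase, with 183 and 245 reads and 0.52 (interval 0.24 to 0.81). Next was Tfam, which packages mitochondrial DNA and starts its transcription, with 183 and 244 reads and 0.52 (interval 0.23 to 0.80). Of the 31 genes, 5 had an interval wholly above 0 and 6 had one wholly below 0. The median of the list was -0.21 with total-count scaling.

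Of 12 genes for protein quality control in mitochondria, 1 was more than 2-fold higher. This was Hspe1, the co-chaperonin, which had 452 and 1158 reads, a log2(fold-change) of 1.46 (interval 1.30 to 1.62). The interval lay wholly above 0 for 5 of the 12 and wholly below 0 for 4, against 25.0% and 20.3% of all genes. The lowest of the 12 were Htra2 at -0.48 (interval -0.77 to -0.19) and Dnaja3 at -0.39 (interval -0.61 to -0.17). The list had a median of 0.10, and of -0.11 with total-count scaling.

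**Figure D5:**
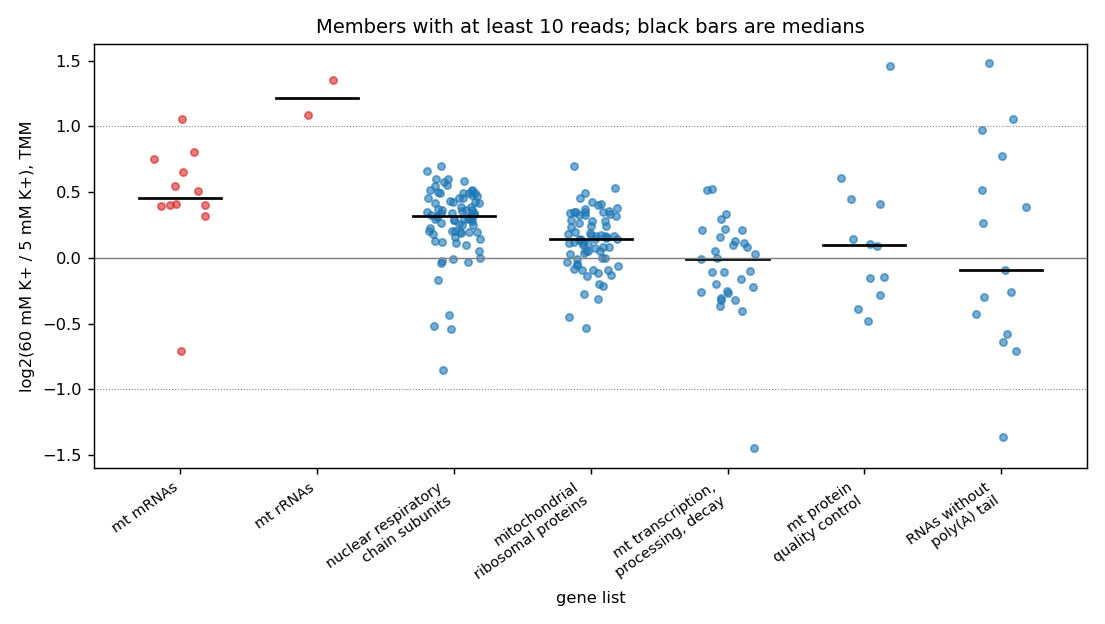
Log2(fold-change) (TMM) of genes with at least 10 reads in 7 lists, 1 point per gene, with the median as a black bar and dotted lines at 2-fold. Medians are 0.46 for the mitochondrial mRNAs, 0.32 for nuclear respiratory chain subunits and 0.15 for mitochondrial ribosomal proteins, and both rRNAs lie above the upper dotted line.

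Markers of other cell types differed between the libraries as well. All 3 endothelial markers were higher in 60 mM K+, with a range of log2(fold-change) from 0.25 to 0.83, and they took 0.214% and 0.265% of reads. The 5 markers of exocrine pancreas had 128 and 415 reads in sum, and all 5 were higher (0.60 to 5.03). The 4 brown adipocyte markers had 72 and 102 reads in sum, of which Cidea had 65 and 94, the defining gene Ucp1 had 2 and 5, and Elovl3 had 0 and 1. The 4 general adipocyte markers had 806 and 341 reads in sum, and 3 of them were more than 2-fold lower, while the fourth, Lep, had 1 and 9 reads. The 4 heart and skeletal muscle markers had 468 and 457 reads in sum, with Myh4 at 0 in both. The 5 red blood cell markers had 908 and 538 reads in sum, and all 5 were lower, from -0.97 to -0.19. The 4 macrophage markers had 117 and 99 reads in sum, between -0.77 and 0.93. The 6 smooth muscle markers lay between -0.16 and 0.40. The part of cell composition in the mitochondrial values was not tested.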

How the data were processed

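RNA-seq was measured in 2 pooled libraries. Alignment by the authors used TopHat2 and mm9, and they deposited unnormalized counts and FPKM for each gene. The submitters' processing notes name TopHat2 2.0.12, HTSeq 0.6.1 and edgeR 3.0.8, and the builds mm8 and mm9, and the sources used here name no annotation. The authors' FPKM follow total counts: counts divided by FPKM differed between the libraries by 1.08 for every gene, the ratio of their totals, and the lengths they imply equal the annotated length for all 15 mitochondrial genes with reads.

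Symbols of 32601 of 55573 identifiers came from the GENCODE vM1 annotation of mm9. The others are not in it, so the counts may rest on a later annotation or build, while nuclear copies and windows were found in mm9. However, all 37 mitochondrial genes have the same coordinates in a GRCm38 gene table. R 4.3.3 with edgeR 4.0.16 gave the TMM factors, and intervals were computed with scipy 1.17.1 in Python 3.11.15. A count of 0 was set to 0.5, and ratios were given where the 2 libraries had 10 or more reads in sum. Without replicates, edgeR's quasi-likelihood test could not be run. Woolf intervals are normal approximations for log odds ratios. A gene was counted as higher or lower past a 2-fold change. Nuclear copies were aligned with BLAST 2.17.0 (word size 16, at least 75% identity, e-value 1e-08), and windows of 50, 100 and 150 bases were searched for exact copies. The interval function was tested on simulated data. Other settings tried were scaling by total counts, by the upper quartile or by the median of ratios (DESeq2 1.42.0), TMM without the mitochondrial genes, minimum counts of 50 reads or none, a 1.5-fold threshold, FPKM with pseudocounts of 0.1 and 1, and members that overlap no other gene. Totals per library give the depth, and a floor of 3 reads was used for genes at 0.

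Named are all mitochondrial genes with 10 or more reads and mt-Nd4l, and of each list at most the 2 highest and 2 lowest members with at least 50 reads; 1 such gene is not reported here. Markers are described by their lists; Atp5sl, Hist1h1c, Gm10222, mt-Tg and the marker genes named were singled out after their values were seen. The members, lists and tests were chosen with earlier results of these data known.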

Additional observations from a re-analysis of the deposited data

How the results depend on the processing

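No paired analysis was possible because there was a single library on each side. Scaling moved the summed mRNA log2(fold-change) from 0.42 to 0.21 with total counts, 0.37 with upper quartile and 0.41 with median of ratios, and it was 0.41 with members that overlap no other gene. Total counts gave 1.07 for the rRNA sum, 0.32 for the tRNA sum and 1 gene more than 2-fold higher in place of 3, since this scaling lowers every value by 0.21. With a 1.5-fold threshold 6 genes were higher and 1 was lower, which follows from the threshold. Across 90 alternative values of single mitochondrial genes, 84 were above 0 and the remaining 6 are those of mt-Atp8, and no gene whose counting interval excluded 0 changed sign. The share of reads on mitochondrial genes, 2.69% and 3.16%, was 2.70% and 3.16% with the rRNAs left out of the library total. The rRNA reads stayed among the mitochondrial reads, so this setting could hardly move the share and does not test it. The mRNAs alone took 2.64% of control and 3.05% of depolarized reads. The median of the mitochondrial ribosomal proteins was -0.06 with total counts, below 0 in place of 0.15. Depth limits mt-Atp8 and mt-Co3 most.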
